A study of Mus musculus with 8 samples.

Results

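The genes described here encode the T cell receptor complex and the proteins that act directly beneath it: the CD3 chains Cd3d, Cd3e and Cd3g, the zeta chain Cd247, the co-receptors Cd4, Cd8a and Cd8b1, and the kinases Lck and Zap70. They were taken by symbol from the rows of the array table that carry exactly 1 gene symbol. Of the 9 genes 8 had such a row, each with 1 transcript cluster, among 19938 genes in all. Lck was not analysed here. The samples were sorted fractions of primary mammary tumors from FvB mice that carry the MMTV-Neu transgene, in which a viral promoter active in mammary epithelium drives the Neu receptor. Each tumor gave a fraction of tumor-initiating cells (TIC, 4 arrays) and a CD24- fraction (4 arrays), and the comparison asks which transcripts differ between them. The tumors were N251, N260 and N283, with N222 and N229 mixed in equal parts before sorting, so that 5 tumors gave 4 pairs. Tumor names follow the sample titles; the growth protocol has N250 in place of N251 and N261 in place of N260. All tumors were under 1 cm across and arose in transgenic animals, so that both fractions share the transgene. Neither the age of the mice nor the set of surface markers behind the TIC gate is stated in the labels.

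On a T cell the receptor's antigen-binding chains have short tails and depend on the CD3 and zeta chains to pass the signal inward. The co-receptor CD4 binds MHC class II and CD8, a dimer of the alpha chain (Cd8a) with itself or with the beta chain (Cd8b1), binds MHC class I; both bring the kinase Lck to the receptor. Lck phosphorylates the tails of the CD3 and zeta chains, and Zap70 docks there and phosphorylates the adaptors that carry the signal on. In mammary tumors these transcripts come mainly from infiltrating T cells, although mouse dendritic cells and macrophages can express Cd4, some dendritic cells express Cd8a, and NK cells express Cd247 and Zap70.

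Cd3g, Cd3d and Cd3e lie next to each other on chromosome 9 with no other protein-coding gene between them in the RefSeq annotation. Their promoters are shown as a description. The 3 RNAs had the same order over the CD24- arrays described below. Cd4, Cd8a, Cd8b1 and Zap70 had that order too, as did 11.0% of all genes. A link between promoter and RNA level was not tested. Each sequence is the 250 bases before the start in RefSeq's GRCm38.p6, written 5′ to 3′ on the gene's strand: chr9:44980432-44980681 (minus strand) for Cd3g, chr9:44981536-44981785 (plus strand) for Cd3d and chr9:45009612-45009861 (minus strand) for Cd3e. The labels name no build for the array values, and the promoters were joined by symbol alone. Capitals mark the ETS-type motif AGGAAG on either strand. The motif was found 0 times for Cd3g, 1 time for Cd3d and 2 times for Cd3e, and 29.5% of 32851 RefSeq promoters of this length hold it. The letters TGTGGT (RUNX-type, in 14% of promoters) and the TATA box letters TATAAA (in 12.4%) were in none of the 3 windows on either strand.
Cd3g: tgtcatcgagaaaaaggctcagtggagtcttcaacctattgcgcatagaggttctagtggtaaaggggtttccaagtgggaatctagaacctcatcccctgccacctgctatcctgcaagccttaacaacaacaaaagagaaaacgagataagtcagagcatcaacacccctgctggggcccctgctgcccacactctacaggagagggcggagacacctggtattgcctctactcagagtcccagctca
Cd3d: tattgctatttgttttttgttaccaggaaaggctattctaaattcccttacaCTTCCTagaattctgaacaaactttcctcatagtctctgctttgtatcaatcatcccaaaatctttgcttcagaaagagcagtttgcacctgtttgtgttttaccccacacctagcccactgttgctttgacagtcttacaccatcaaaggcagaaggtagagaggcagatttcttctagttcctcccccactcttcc
Cd3e: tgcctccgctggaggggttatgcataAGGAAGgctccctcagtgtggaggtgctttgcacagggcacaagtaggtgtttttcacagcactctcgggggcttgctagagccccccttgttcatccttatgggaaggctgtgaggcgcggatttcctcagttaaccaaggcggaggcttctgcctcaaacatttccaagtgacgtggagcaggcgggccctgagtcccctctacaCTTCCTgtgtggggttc

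The arrays were Affymetrix Mouse Gene 1.0 ST, which have 1 colour, and all levels are the authors' log2 intensities, on which a step of 1 is a doubling. Array medians were 7.03 to 7.18 and the lower quartiles of the TIC arrays 5.82 to 5.87. Background was not measured, so a dim gene's fold change may be too small. Epithelial markers were bright on average in both fractions, with means over 10 genes of 10.32 to 10.53 in the TIC arrays and 9.57 to 10.39 in the CD24- arrays, where N251 was lowest. Means over 15 pan-leukocyte genes were 6.70 to 6.92 in the TIC arrays and 8.72 to 11.34 in the CD24- arrays. With 4 arrays a group, their number limits the precision. Differences are TIC minus CD24-, fitted with limma over all 19938 genes, and the threshold for a call was 0.05 on p-values adjusted by Benjamini and Hochberg's method.

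Cd3g fell in the TIC fraction, the largest difference of the 8 genes, while the other 7 had lower means there and did not pass the test. Among the 8 genes 1 fell and 0 rose, where 0.742% of all genes fell and 0.0502% rose. The median difference of the 8 genes was -1.61, against 0.04 over all genes. The TIC arrays lay wholly below the CD24- arrays for 5 of the 8 (Cd3e, Cd3g, Cd4, Cd8a and Cd8b1), against 4.68% of all genes. All but Cd247 were lower in every tumor, against 11.8% of all genes. In sorted bulk samples fewer T cells and less RNA per T cell cannot be told apart.

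Cd3g, the gamma chain of CD3, had 5.91, 5.54, 5.58 and 5.66 in the TIC arrays of N251, N260, N283 and the pool, against 12.63, 11.93, 11.03 and 9.60 in the CD24- arrays of the same tumors. The TIC values lay near the lower quartile of their arrays, and the lowest CD24- array was 3.69 above the highest TIC array. The mean difference of -5.62 ± 0.54 (SE, n = 4 each) is a 49.3-fold lower level (limma adjusted p = 0.00224, and 0.0189 in the fit with a fixed term for the tumor, the fixed block). Within tumors the fold ran from 105.6 (N251) through 83.8 (N260) and 43.8 (N283) down to 15.3 (pool). Among all genes this difference ranked 7 from the lowest. Without both arrays of N260 Cd3g was not called (-5.37, limma adjusted p = 0.0954).

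Cd3e, the epsilon chain that pairs with the gamma and delta chains, had 7.66, 7.32, 7.33 and 7.15 in the TIC arrays, in the same order of tumors, against 11.40, 10.56, 9.11 and 8.09 in the CD24- arrays. The groups did not overlap, but the CD24- arrays spread over 3.32 and the TIC arrays over 0.51. Its difference of -2.43 ± 0.61 (SE) was not called (limma adjusted p = 0.134, and 0.0715 with the fixed block). Cd3d, the delta chain, had 5.76, 5.43, 5.36 and 5.35 in the TIC arrays and 7.19, 6.62, 6.06 and 5.39 in the CD24- arrays. The groups overlapped through the pool, where both fractions were within 0.05 of each other, and the difference of -0.84 ± 0.33 (SE) was not called (limma adjusted p = 0.302). In each tumor the Cd3g difference was further from 0 than that of Cd3e, Cd3g minus Cd3e being -3.66 to -2.98. Probes of different genes respond differently, so this gap does not show that Cd3g RNA differed more than Cd3e RNA.

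Cd247, whose zeta chain carries the most phosphorylation motifs of the complex, was the flattest of the 8 genes. It had 7.00, 6.59, 6.89 and 6.73 in the TIC arrays, against 7.34, 6.86, 7.00 and 6.69 in the CD24- arrays. The groups overlapped and the pool had the TIC array slightly higher. The difference was -0.17, with a limma 95% interval of -0.52 to 0.18 (adjusted p = 0.680), so a fall of the size seen for Cd3e lies outside that interval.

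**Figure D1:**
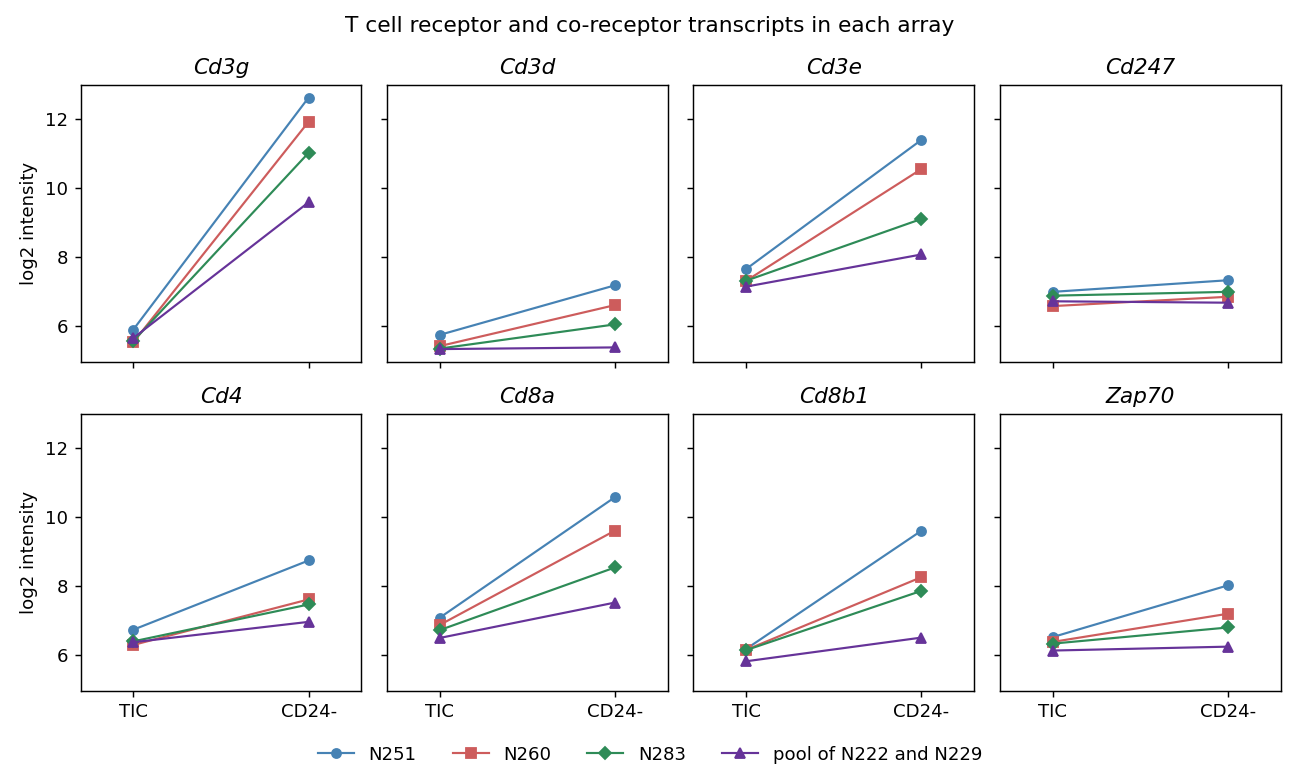
Log2 intensity of the 8 genes in the TIC fraction (left in each panel) and the CD24- fraction (right), with a line for each tumor or pool. The CD24- arrays fan out, with N251 on top and the pool at the bottom for each gene, while the 4 TIC arrays of a gene lie within 0.36 to 0.59 of each other.

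The co-receptors followed the CD3 chains in direction and were not called. Cd8a, the alpha chain of CD8, had 7.09, 6.88, 6.73 and 6.51 in the TIC arrays of N251, N260, N283 and the pool, against 10.59, 9.62, 8.55 and 7.53 in the CD24- arrays. Cd8b1, the beta chain, had 6.19, 6.16, 6.15 and 5.83 in the TIC arrays, against 9.61, 8.27, 7.87 and 6.52 in the CD24- arrays. Neither gene's groups overlapped, and both were highest in the CD24- array of N251. Their differences were -2.27 ± 0.55 for Cd8a and -1.98 ± 0.53 for Cd8b1 (SE; limma adjusted p = 0.122 and 0.151). In 4 of 4 tumors the Cd8a difference was the further from 0 of the pair, with Cd8a minus Cd8b1 at -0.63 to -0.07. This gap too may reflect how the probes respond, which was not tested.

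Cd4, the co-receptor of helper T cells, had 6.75, 6.30, 6.41 and 6.38 in the TIC arrays, against 8.75, 7.62, 7.48 and 6.97 in the CD24- arrays. The groups did not overlap, with a gap of 0.23 between the highest TIC and the lowest CD24- array. The difference of -1.25 ± 0.32 (SE) was not called (limma adjusted p = 0.141, and 0.0593 with the fixed block). The Cd8a difference was further from 0 than the Cd4 difference in 4 of 4 tumors, with Cd8a minus Cd4 at -1.49 (N251), -1.41 (N260), -0.75 (N283) and -0.44 (pool). Different probes respond differently, so these differences give no ratio of CD8 to CD4 cells.

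Zap70, the kinase that binds the phosphorylated chains, had 6.53, 6.39, 6.34 and 6.14 in the TIC arrays, against 8.03, 7.21, 6.81 and 6.26 in the CD24- arrays. The groups overlapped, since the CD24- array of the pool was below 3 of the TIC arrays. The difference of -0.72 ± 0.32 (SE) was not called (limma adjusted p = 0.350, and 0.153 with the fixed block).

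**Figure D2:**
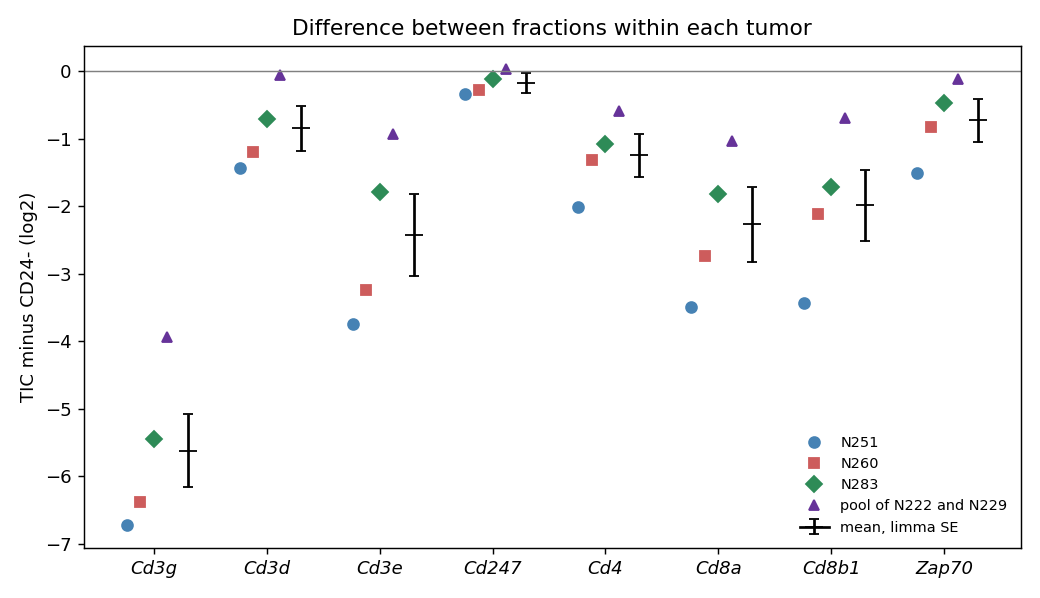
TIC minus CD24- difference (log2) of each gene in each tumor or pool, with the mean and its limma SE (n = 4 arrays each) in black. For all 8 genes N251 has the lowest difference and the pool the highest, and Cd3g stands below the other genes in every tumor.

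How many of the 8 passed depended on how the tumor entered the fit and on which arrays were kept. In the fixed block 1 of the 8 genes fell, against 1.09% of all genes. In the random block 5 fell (Cd3e, Cd3g, Cd4, Cd8a and Cd8b1, limma adjusted p = 0.0274, 0.000421, 0.0263, 0.0220 and 0.0330), against 3.04% of all genes. Without the CD24- array of the pool, 6 of the 8 were called lower, against 2.92% of all genes. That array was the lowest CD24- array for all 8, so leaving it out moves each difference further from 0. Without both arrays of N260, 0 of the 8 were called lower, as were 8 of all 19938 genes. At an unadjusted p under 0.05 in the fit without a block, 7 of the 8 were lower and 0 higher; 6.24% of all genes were lower.

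The spread lay in the CD24- fraction. In 7 of the 8 genes the CD24- arrays stood in the order N251, N260, N283 and the pool from high to low, an order that 11.0% of all genes had. Cd247, with N283 above N260, was the exception. All 8 were highest in N251 and lowest in the pool, as were 20.0% of all genes. Their mean difference was -2.83 (N251), -2.26 (N260), -1.64 (N283) and -0.91 (pool). Over the 8 arrays each gene correlated with the mean of the other 7 at a Pearson r of 0.705 for Cd247 and of 0.909 to 0.995 for the rest, a description of arrays that share tumors and a sort.

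The mean differences of the macrophage, NK cell, dendritic cell and pan-leukocyte lists stood in the same order of tumors, and those of the B cell list did not. The macrophage list had mean levels of 6.39 to 6.81 in the TIC arrays and 9.69 to 12.18 in the CD24- arrays, with differences of -5.58, -4.81, -3.95 and -2.88 in N251, N260, N283 and the pool. Of its 15 measured genes 12 fell, beside 0.742% of all genes, a share that applies to the counts of each list. Among the 12 were Ms4a6c, a membrane protein of myeloid cells (-6.24), and Lyz2, the myeloid lysozyme (-5.77). The NK cell list had mean levels of 5.39 to 5.52 in the TIC arrays and 6.78 to 8.84 in the CD24- arrays. Of its 14 measured genes 4 fell. They were the signalling adaptors Fcer1g (-4.99) and Tyrobp (-4.96), which myeloid cells also express, and the granzyme genes Gzmb (-4.94) and Gzma (-1.80). Of 15 pan-leukocyte genes 8 fell, with the largest differences for the tetraspanin Cd53 (-5.50) and the lysosomal Laptm5 (-5.26).

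Of 10 dendritic cell genes 2 fell, Siglech (-1.59, limma adjusted p = 0.0387) and Cd209a (-1.13, limma adjusted p = 0.0292), against 0.742% of all genes. The integrin genes Itgax (-3.00, limma adjusted p = 0.0553) and Itgae (-2.98, limma adjusted p = 0.0874, and 0.0495 with the fixed block) had the largest differences and were not called. The list's mean levels were 6.29 to 6.52 in the TIC arrays and 6.87 to 7.93 in the CD24- arrays. Of 9 measured B cell genes 0 were called in limma without the block. At an unadjusted limma p under 0.05, 3 of the 9 were lower, against 6.24% of all genes. The largest differences were those of the surface lectin Cd22 (-1.26) and the B cell receptor chain Cd79b (-1.25, limma adjusted p = 0.0607, and 0.0313 with the fixed block). The B cell list's mean levels were 5.82 to 6.02 in the TIC arrays and 6.02 to 6.64 in the CD24- arrays, with differences of -0.62, -0.50, -0.54 and -0.19 in N251, N260, N283 and the pool, so that N283 was further from 0 than N260. Of 10 epithelial genes 0 were called in limma. The claudins Cldn7 (0.69) and Cldn4 (0.48), 2 of the 10, were higher at an unadjusted p under 0.05, as were 1600 of all 19938 genes. The NK cell, dendritic cell and pan-leukocyte lists hold genes that T cells can also express, such as Gzmb, Itgae and Ptprc. The part of each cell type in the T cell receptor differences was not tested.

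**Figure D3:**
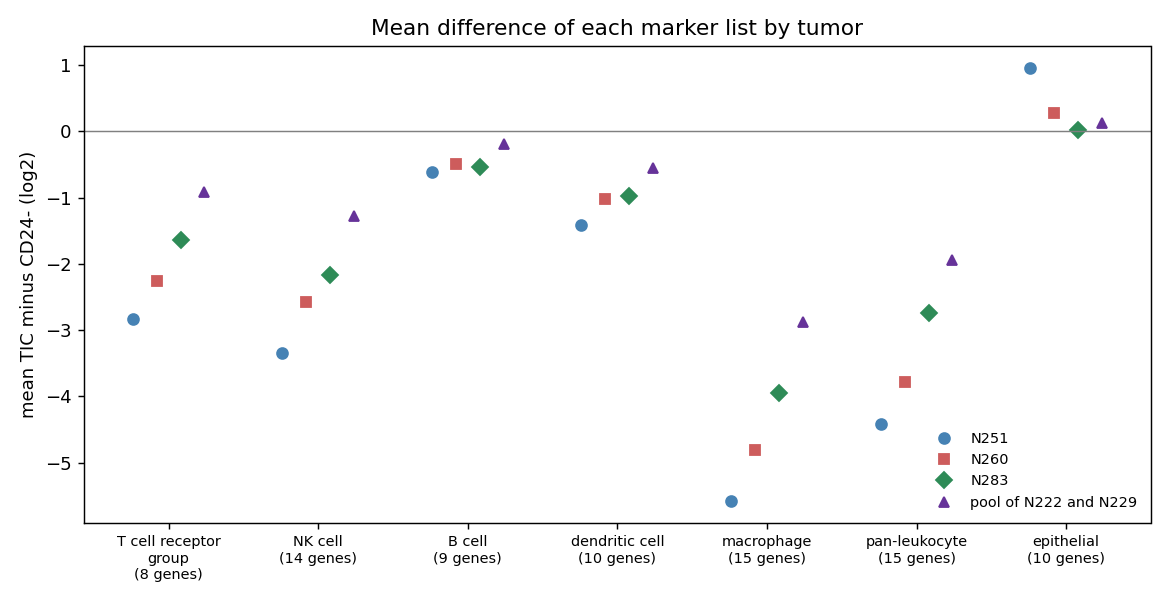
Mean TIC minus CD24- difference (log2) of the T cell receptor genes and of the other marker lists, with a point for each tumor or pool. The T cell receptor, NK cell, dendritic cell, macrophage and pan-leukocyte lists run in the same order of tumors, the B cell list has N260 and N283 exchanged, and the epithelial list is above 0 in each.

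Other genes of T cell receptor signalling were lower in part. Of 39 listed genes 37 were measured, 6 fell and 0 rose, where 0.742% of all genes fell and 0.0502% rose. Their median difference was -0.99, against 0.04 over all genes. At an unadjusted p under 0.05 in limma, 24 of the 37 were lower and 0 higher, and 6.24% of all genes were lower. Fyb, an adaptor that links the receptor to integrins, differed by -4.71 ± 0.63 (SE, limma adjusted p = 0.0118). Ptprc, the CD45 phosphatase that frees Lck for activity, differed by -4.29 ± 0.59 (limma adjusted p = 0.0135). Lcp2, the SLP-76 adaptor phosphorylated by Zap70, differed by -3.74 ± 0.55 (limma adjusted p = 0.0200). Vav1, a guanine nucleotide exchange factor, the adaptor Sla and the phosphatase Ptpn22 also fell (-3.61, -3.17 and -2.88). All 6 are also expressed by other leukocytes, and Ptprc and Vav1 stand in the pan-leukocyte list too.

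The 6 genes were called with the fixed block as well. The smallest differences were those of the inhibitory receptor Ctla4 (-0.07 ± 0.13) and of Plcg1, the phospholipase that many cell types use (0.10 ± 0.11). Ctla4 averaged 5.73 over the TIC arrays and 5.80 over the CD24- arrays, below the lower quartile of the arrays in each. Plcg1 averaged 9.43 over the TIC arrays and 9.33 over the CD24- arrays. The receptor constant region genes were not analysed here.

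Of 13 listed T lineage transcription factors 11 were measured and 0 were called in limma without the block. At an unadjusted limma p under 0.05, 4 were lower and 0 higher, and 6.24% of all genes were lower. With the fixed block, where 1.09% of all genes fell, 1 of the 11 fell, Runx3, a factor of CD8 T cells and NK cells. It averaged 7.09 ± 0.15 over the TIC arrays and 9.52 ± 1.13 over the CD24- arrays (SD, n = 4 each). Its groups did not overlap, and its difference of -2.43 ± 0.47 (SE) had a limma adjusted p = 0.0553, and 0.0430 with the fixed block. Tbx21, the factor of type 1 helper and cytotoxic cells, differed by -1.45 ± 0.44 and Tox, a factor of T cell development and exhaustion, by -0.79 ± 0.33 (limma adjusted p = 0.192 and 0.331). Zbtb7b, which directs thymocytes to the CD4 lineage, and the chromatin organiser Satb1 had the smallest differences, -0.0042 ± 0.14 and 0.12 ± 0.15. Zbtb7b averaged 9.23 in each fraction, and Satb1 9.42 over the TIC arrays and 9.29 over the CD24- arrays. Both were bright in the TIC arrays, where Cd3g averaged 5.67, and which cells they came from was not tested.

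**Figure D4:**
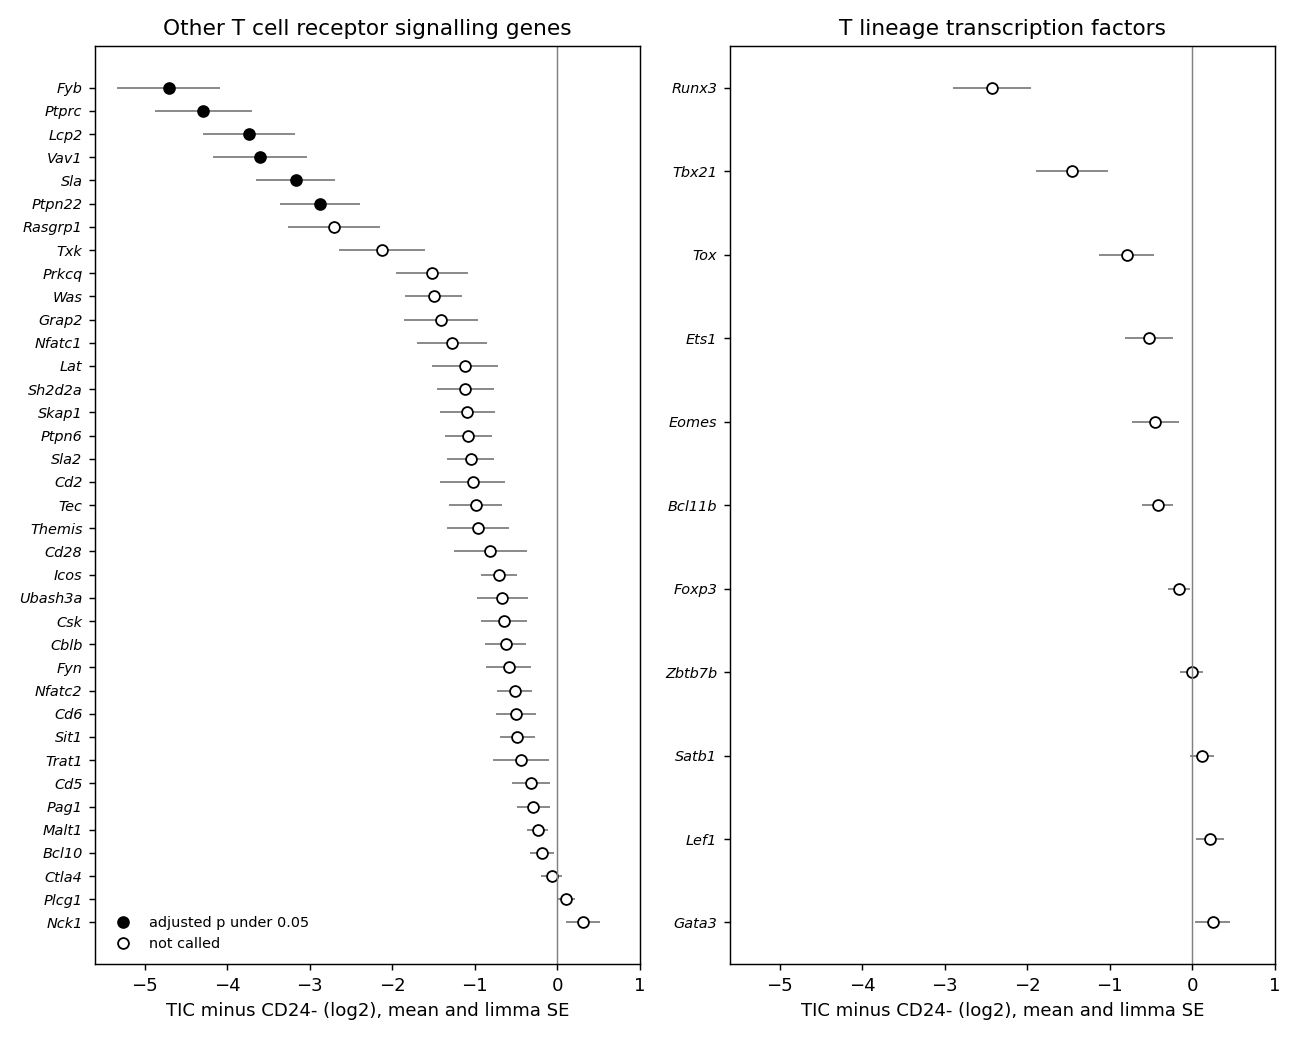
TIC minus CD24- difference (log2, mean and limma SE over 4 arrays each) of 37 other signalling genes (left) and 11 T lineage transcription factors (right), with filled points for genes at an adjusted p under 0.05. The 6 filled points are Fyb, Ptprc, Lcp2, Vav1, Sla and Ptpn22.

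The genes most like the T cell receptor group over the 8 arrays are known from phagocytes, B cells, myeloid cells or leukocytes at large. By Pearson correlation with the mean of the 8 centred genes they were Ncf1, a subunit of the phagocyte oxidase (0.999), the leukocyte integrin chain Itgb2, the B cell coreceptor Cd72, the haematopoietic GTPase Rac2 and the myeloid factor Irf8 (each 0.997). Ncf1 had 6.90, 6.63, 6.67 and 6.50 in the TIC arrays, against 10.34, 9.24, 8.43 and 7.50 in the CD24- arrays. The 5 were picked for likeness to genes lower in the TIC fraction, so their separation and calls follow largely from that choice. All 5 had groups that did not overlap (4.68% of all genes, TIC lower), and 0 of the 5 were called in limma without the block. All 5 had an unadjusted limma p under 0.05, as did 6.24% of all genes in the lower direction. With the fixed block 3 of the 5 fell (Itgb2, Cd72 and Irf8, limma adjusted p = 0.0482, 0.0412 and 0.0396), and with the random block 5 of the 5. The likeness rests on 8 arrays of 4 pairs and is a description.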

How the data were processed

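The deposited log2 intensities of 35556 rows were made by the authors with RMA and Partek, per the submitters' processing notes; the versions, the settings and the build are not stated there. Rows with exactly 1 symbol in the platform annotation (21789) were kept, symbols were looked up in a RefSeq table of GRCm38.p6 (21698 matched, 0 renamed), and the brightest transcript cluster by the mean of all 8 arrays stood for a gene. limma 3.58.1 in R 4.3.3 (lmFit, eBayes) compared TIC with CD24- on all 8 arrays without a filter, with Benjamini-Hochberg adjustment over 19938 genes. The fits without a block and with the fixed block were tested on simulated data that held no tumor effect. The random block was not tested in this way. Tumors pair the arrays per the labels; across genes, the departures of a tumor's TIC and CD24- arrays from their groups' means correlated at 0.32 (N251), 0.43 (N260), 0.30 (N283) and 0.56 (pool). p-values measure the spread between 4 arrays a group. The members and lists were chosen with earlier results of these data known. Named were the members and the 5 genes most like them. Of the pathway and factor lists, called genes and the largest and smallest differences were named. Of each marker list the 2 largest were named, and of the NK and dendritic cell lists also the called genes. Tried in turn were a fixed and a random tumor block, dim genes left out, the eBayes prior, array weights, scaling, clusters, thresholds and left-out arrays.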

Additional observations from a re-analysis of the deposited data

Results flagged for a closer look

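Of 94 sets of 4 arrays, 4 had an array far from the others, and chance gives about 4.7. The TIC array of the pool had Cd8b1 at 5.83 (others 6.15 to 6.19) and Lyz2 at 6.99 (others 6.04 to 6.20). The TIC array of N251 had Lcp2 at 6.77 (others 6.58 to 6.60). The TIC array of N283 had a mean of the NK cell list of 5.39 (others 5.50 to 5.52). Rows annotated to several T cell receptor gene segments, 42 in all and some with the same values as another, were not used in the comparison. When all 35556 rows were tested, 2 of the 42 were lower in the TIC fraction (limma adjusted p = 0.0119 and 0.0141), against 0.307% of all rows.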

How the results depend on the processing

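Each of the 8 genes kept the sign of its difference in every alternative run. Cd3g was called in 20 of 21 alternatives, with differences of -6.19 to -5.18; Cd247 and Zap70 were called in 0 of 20 each. Of the 8 genes 5 fell with the tumor as a random replicate block, 6 with array weights and 7 at an unadjusted p under 0.05, against 1 in the fit without a block and 1 with the fixed replicate block. Left-out arrays or tumors gave 0 (without tumor N260, fewer samples) to 6 (without the CD24- array of the pool); 2 fell without the CD24- array of N251 and 2 without the pool. The cause was not tested. Among all genes 10 rose and 148 fell; 172 rose with the fixed replicate block, 430 rose and 606 fell with the random block, and 191 rose and 778 fell with array weights. With dim genes left out (below the median level, which kept 3 of the 8), 5 rose; 19 rose after median centring and 6 after cyclic loess. At an adjusted p under 0.01, 0 rose and 58 fell, and at an unadjusted p under 0.05, 1600 rose and 1244 fell. Left-out arrays or tumors gave 0 to 46 higher genes (33 without the CD24- array of the pool) and 8 to 583 lower genes (583 without the CD24- array of the pool). The lower count was 52 and 53 without the TIC arrays of N251 and of the pool, 314 without the CD24- array of N251, 42 without tumor N283 and 225 without the pool. Of the 148 genes that fell, 137 also fell in the fixed block and 148 in the random block.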

Other observations

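The receptor's own chains are assembled from gene segments, and 52 rows were annotated to such segments alone, 10 of them to 1 segment. They were chosen after their values were seen, and the table of all rows was tested without a block. Of the 52 rows 3 fell and 0 rose, where 0.307% of all 35556 rows fell, and in 11 of them (21.2%) the TIC arrays lay wholly below the CD24- arrays, against 3.41% of all rows. At an unadjusted p under 0.05, 26 of the 52 were lower and 0 higher, and 4.84% of all rows were lower.

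The 3 that fell were rows of the gamma chain, which with the delta chain forms the receptor of gamma-delta T cells. In all 4 gamma rows the TIC arrays lay wholly below the CD24- arrays, with differences of -5.78 to -3.65. The row of Trgv1, a variable segment, had 5.25, 4.78, 4.97 and 5.57 in the TIC arrays of N251, N260, N283 and the pool, against 10.24, 9.94, 8.71 and 7.93 in the CD24- arrays. In the fit of 19938 genes its difference was -4.06 ± 0.47 (SE, n = 4 each; limma adjusted p = 0.00524, and 0.0265 with the fixed block), lower in 4 of 4 tumors.

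The 45 alpha chain rows had a median difference of -0.32 and a lowest of -1.31, and 0 were called (limma). At an unadjusted p under 0.05, 20 were lower and 0 higher, where 4.84% of all rows were lower. The 2 beta chain rows differed by -0.78 and -0.69 and the 1 delta chain row by -0.37, and none of these was called (limma); at an unadjusted p under 0.05 both beta rows were lower and the delta row did not pass. Many segment rows share sequence, and each T cell clone uses few segments, so rows of a chain are neither independent nor a measure of the chain's total RNA.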
